A study of Mus musculus with 2 samples.

Results

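The 10 genes described here encode chaperones and stress-response proteins of the endoplasmic reticulum (ER): Hspa5, Hsp90b1, Calr, Pdia4, Dnajb9, Sdf2l1, Creld2, Manf, Herpud1 and Xbp1. They were taken by symbol from the 15348 genes of the deposited liver table, all 10 were found, and all 10 had a mean level of at least 10, as did 7602 genes in all. The level is the deposited normalized count, which behaves as a scaled CPM. The rule takes the 10 by name and sets no threshold on a measured value, but the genes were picked with earlier results of these data known.

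Livers came from female NOG-TKm30 mice, which were 16 weeks old. The OTD mice received ortho-toluidine, an aromatic amine, at 0.6% for 1 week and at 0.3% for the following 3 weeks, and the control mice received 0% over the same 4 weeks. Both groups carried the same transgene, an HSVtk mutant (clone 30 of herpes simplex virus thymidine kinase) driven by the enhancer and promoter of mouse transthyretin, a gene of hepatocytes. NOG mice are severely immunodeficient and lack mature T, B and NK cells. Livers of 5 OTD mice were mixed into 1 library and livers of 3 control mice into the other. With 1 library per group, no test of the treatment could be run and no p-value is given. The strain is NOG-TKm30 in all labels but the treatment text, which speaks of C57BL mice, and the word Wild in the column headers is unexplained.

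The OTD library held 14685193 reads over genes and the control library 13569189. The hepatocyte gene Alb (albumin) stood at a level of 69694 in OTD and 81661 in control, so the tissue label fits its main marker, and the 10 hepatocyte markers examined summed to 104016 in OTD and 118127 in control. Markers of other liver cells were far lower and their sums differed little: 407.2 in OTD and 439.4 in control for 10 Kupffer cell genes, 628.8 and 665.9 for 10 sinusoidal endothelial genes, 775.4 and 810.9 for 10 stellate cell genes, and 44.22 and 46.95 for 7 cholangiocyte genes. The 7 monocyte and neutrophil genes in the table summed to 45.3 in OTD and 40.3 in control. Of 10 plasma cell and B cell genes, 5 were in the table, summing to 344.6 in OTD and 298.9 in control, nearly all from Sdc1, which hepatocytes also express. The plasma cell gene Jchain stood at 0.13 in OTD and 0.15 in control, and the B cell gene Cd79b at 0 in OTD and 0.38 in control. Plasma cells are rich in ER chaperones, and their defining marker Jchain was thus near 0 in both pools. The part of these shifts in the results was not tested, and in whole liver fewer cells of a type and less RNA per cell cannot be told apart.

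Proteins that enter the ER are folded by chaperones, joined by disulfide bonds and checked by sugar-binding chaperones, and those that fail are sent to the cytosol for degradation. When unfolded proteins accumulate, the sensors IRE1, PERK and ATF6 start the unfolded protein response (UPR), which raises transcription of most of the 10 genes here. Hepatocytes carry a heavy load of this work because they secrete most plasma proteins. ATF6 and XBP1 act through ER stress response elements in promoters. These elements are shown first, and 5 of the 9 genes searched held either form. The genes were listed as ER chaperone and UPR genes, so a high share could be foreseen and is no independent support.

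A search of the 250 bases before each start site in the RefSeq promoter table (build GRCm38.p6) covered 9 of the 10 genes, all but Manf. On either strand, 4 of the 9 held the full ER stress response element (ERSE), CCAAT and CCACG with 9 free bases between them. Herpud1 alone among the 9 held the related ERSE-II, ATTGG and CCACG with 1 free base between them. The Herpud1 window ends in CCAAT, 9 free bases and CCAC, 1 base short of an ERSE. Bases past this window were not searched, so an ERSE at that edge was not called and its absence from Herpud1 is not shown. The ERSE was found in 37 of 32851 promoter windows of the same length (0.113%) and the ERSE-II in 10 (0.0304%). The letters TGACGTGG of the UPR element were in 0 of the 9 windows, against 0.563% of all windows. CCACG, which is part of both ERSE forms, was in 7 of the 9 and in 28.3% of all windows. A match describes these letters only and does not show binding. The sequences below run 5′ to 3′ in the direction of the gene, with the elements in capitals. The whole window is given for Hspa5, the classic UPR gene, and for Herpud1, the gene that differed most between the pools. For the other 3, the stretch around the elements is given.
Hspa5 (chr2:34771840-34772089, plus strand): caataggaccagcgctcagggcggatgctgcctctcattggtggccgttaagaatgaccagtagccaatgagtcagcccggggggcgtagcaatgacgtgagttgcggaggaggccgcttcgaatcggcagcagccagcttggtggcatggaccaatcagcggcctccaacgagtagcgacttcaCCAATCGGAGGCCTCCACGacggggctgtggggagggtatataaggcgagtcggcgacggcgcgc
Hsp90b1 (chr10:86705513-86705676, minus strand): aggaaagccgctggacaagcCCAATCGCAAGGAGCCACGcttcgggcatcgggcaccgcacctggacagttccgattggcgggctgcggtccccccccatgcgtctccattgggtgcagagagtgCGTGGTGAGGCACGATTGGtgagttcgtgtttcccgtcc
Calr (chr8:84847055-84847113, minus strand): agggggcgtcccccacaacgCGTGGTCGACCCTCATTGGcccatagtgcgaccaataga
Creld2 (chr15:88819500-88819558, plus strand): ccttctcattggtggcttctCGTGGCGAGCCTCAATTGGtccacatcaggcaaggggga
Herpud1 (chr8:94386179-94386428, plus strand): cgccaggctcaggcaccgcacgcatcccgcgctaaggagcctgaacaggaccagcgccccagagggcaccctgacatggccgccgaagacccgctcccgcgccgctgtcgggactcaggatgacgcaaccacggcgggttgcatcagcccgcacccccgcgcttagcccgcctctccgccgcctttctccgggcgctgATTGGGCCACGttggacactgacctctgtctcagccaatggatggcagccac

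The element of Hspa5 began 65 bases before the start site and ran forward. Hsp90b1 held a forward element at 212 bases and a reverse one at 107 bases, as seen in the capitals above, where a reverse element begins with CGTGG. In Calr and Creld2 a single reverse element lay at 162 and 126 bases. The ERSE-II of Herpud1 began 52 bases before the start. Pdia4, Dnajb9, Sdf2l1 and Xbp1 held neither form in this window.

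**Figure D1:**
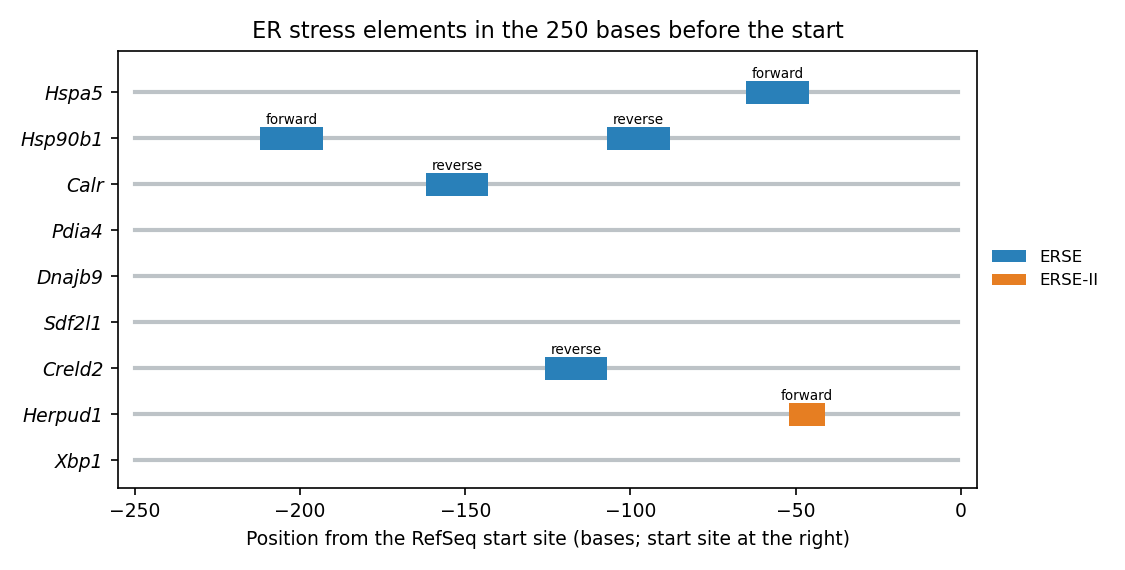
Position of ERSE and ERSE-II matches (bars, drawn to scale) in the 250 bases before the RefSeq start site of 9 genes; the x axis gives bases from the start. Hspa5, Hsp90b1, Calr and Creld2 hold the ERSE, Hsp90b1 at 2 places, and Herpud1 holds the shorter ERSE-II at 52 bases.

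The comparison of the OTD and control pools asked whether the ER folding genes differed in liver after OTD. They differed little, with 1 exception. None of the 10 was at least 2-fold higher, a size that 0.21% of the 7602 measured genes reached, and none was at least 2-fold lower (0.21% of measured genes). At 1.5-fold, 0 of 10 were higher (1.51% of measured genes) and 1 of 10, Herpud1, was lower (0.908%). The other 9 had ratios between 0.893 and 1.27. The median log2 ratio of the 10 was 0.093, beside −0.0063 over all measured genes (log2 of OTD over control, with a pseudocount of 1). Of the 10, 6 lay above 0 and 4 below, with 48.4% of all measured genes above 0. The levels of the 10 summed to 2999.7 in OTD and 2925 in control. The sum was thus slightly higher in OTD, although Herpud1 differed by −206.7 (level in OTD minus control).

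Each ratio of levels below is followed by its 95% interval (exact, Clopper-Pearson), computed from how a gene's reads divide between the libraries. Such an interval covers counting error and leaves out differences between mice, pools or preparations. By that measure 5 of the 10 had an interval above 1 (18.6% of measured genes) and 1 had an interval below 1 (19.6%), while the intervals of Dnajb9, Sdf2l1, Creld2 and Xbp1 held 1. More reads give a narrower interval, so an abundant gene can exclude 1 at a small ratio, as Hsp90b1 did at 1.07. The shares of measured genes include genes with far fewer reads and are thus no like-for-like background.

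**Figure D2:**
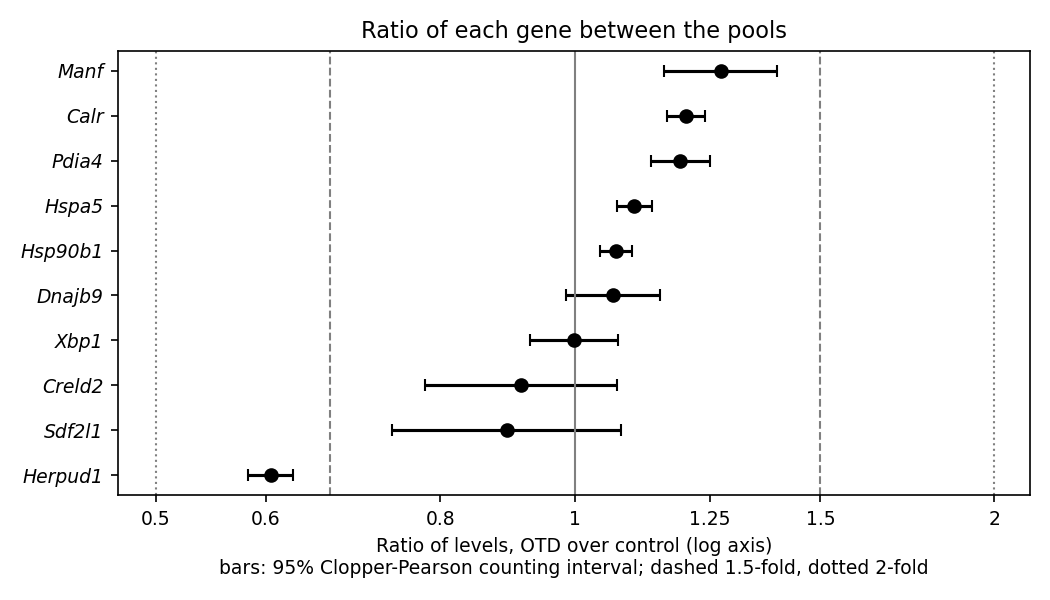
Ratio of levels, OTD over control (x axis, log scale), for each of the 10 genes, 1 library per group; bars are 95% Clopper-Pearson counting intervals, and lines mark 1, 1.5-fold and 2-fold. Herpud1 stands alone at 0.605, and the other 9 lie between 0.893 and 1.27.

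Hspa5 and Hsp90b1, the main HSP70 and HSP90 chaperone genes of the ER, were slightly more abundant in the OTD pool. Hspa5 encodes BiP, the HSP70 of the ER, which binds unfolded chains and holds the UPR sensors inactive. Its level was 679.7 in OTD and 616.1 in control, from 10175 and 8201 reads, a ratio of 1.10 (1.07 to 1.14). The gene lies on chromosome 2 at 34771970 to 34777547 (GRCm38, as for all genes below). Hsp90b1 encodes GRP94, the HSP90 of the ER, on chromosome 10 at 86690209 to 86705509. It had the highest level of the 10, 797.6 in OTD and 745.6 in control, a ratio of 1.07 (1.04 to 1.10). Among measured genes, 22.4% had a higher log2 ratio than Hspa5 and 29.5% a higher one than Hsp90b1, so both lay well inside the range of the table. Their log2 ratios of 0.14 and 0.097 became 0.21 and 0.17 when reads were scaled to the same total without Rn45s, a ribosomal RNA precursor. The antisense gene 1810014B01Rik covers 10.1% of the 50-base stretches of the longest coding Hsp90b1 transcript, and genes on the same strand share 3.71%.

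Calr and Pdia4 had larger ratios than these chaperones. Calr encodes calreticulin, a calcium-binding chaperone that recognizes sugar chains on new glycoproteins, on chromosome 8 at 84841850 to 84846934. Its level was 643.5 in OTD and 535.7 in control, a ratio of 1.20 (1.17 to 1.24). Pdia4 encodes ERp72, a protein disulfide isomerase, on chromosome 6 at 47796141 to 47813430. It stood at 253.9 in OTD and 213.4 in control, a ratio of 1.190 (1.1332 to 1.2497). The intervals of both lay above those of Hsp90b1, and the one of Calr also above that of Hspa5, so these genes differed among themselves beyond counting error. Of measured genes, 10.6% had a higher log2 ratio than Calr and 11.5% a higher one than Pdia4.

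Manf had the highest ratio of the 10. It encodes a small protein of the ER lumen that binds BiP and can be secreted, on chromosome 9 at 106838312 to 106891979. Its level was 72.8 in OTD and 57.2 in control, from 1090 and 762 reads, a ratio of 1.27 (1.16 to 1.40). Of measured genes, 6.33% had a higher log2 ratio. The Manf locus overlaps 4930524O07Rik on the opposite strand, which covers 5.32% of the 50-base stretches of its longest coding transcript. It also overlaps Rbm15b on the same strand and Dcaf1 and Gm37612 on the opposite strand, none of which share such stretches. Whether counting used strand is not given in the sources used here.

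Dnajb9, Sdf2l1 and Creld2 had intervals that held 1. Dnajb9 encodes ERdj4, a J-domain partner of BiP, on chromosome 12 at 44205559 to 44210326. It stood at 96.1 in OTD and 90.2 in control, a ratio of 1.06 (0.985 to 1.15). A processed pseudogene, Gm6568, holds 5.80% of its 50-base stretches. Sdf2l1, an ER-resident protein induced by stress that works with J-domain chaperones, lies on chromosome 16 at 17130138 to 17132383. It had 225 reads in OTD and 224 in control, levels of 15.03 and 16.83, and a ratio of 0.893 (0.739 to 1.08). Creld2, a stress-induced ER protein with EGF-like repeats, lies on chromosome 15 at 88819646 to 88826683. Its 322 reads in OTD and 313 in control gave levels of 21.5 and 23.5 and a ratio of 0.915 (0.780 to 1.07). At these read numbers a difference from 1 as small as that of Hspa5 was not detectable for Sdf2l1 or Creld2. Both intervals ended below the ratio of Hspa5, 1.10, but overlapped its interval (1.07 to 1.14).

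Herpud1 was the exception. It encodes an ER membrane protein with a ubiquitin-like domain that takes part in ER-associated degradation (ERAD) at the HRD1 ubiquitin ligase complex, and it lies on chromosome 8 at 94386438 to 94395377. Its level was 316.2 in OTD and 522.8 in control, from 4733 and 6959 reads. The ratio was 0.605 (0.583 to 0.628), and the log2 ratio was −0.72. Of the 7602 measured genes, 35 (0.460%) had a lower log2 ratio. Its level per level of Hspa5, which is free of the scaling between the libraries, was 0.465 in OTD and 0.849 in control. The same quotient for Calr was 0.947 in OTD and 0.870 in control, so the split between Herpud1 and the chaperones does not depend on the scaling. The annotated antisense gene Gm15890 overlaps the Herpud1 locus but shares 0% of the 50-base stretches of the longest coding Herpud1 transcript.

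Xbp1 encodes the transcription factor that IRE1 activates, and lies on chromosome 11 at 5520659 to 5525893. Its level was 103.5 in OTD and 103.7 in control, a ratio of 0.998 (0.928 to 1.07). IRE1 activates Xbp1 by cutting a short stretch out of its mRNA, which shifts the reading frame. A count per gene adds the cut and uncut forms, so the activity of IRE1 was not measured by this value. The stretch was found in the coding part of the longest coding Xbp1 transcript of GENCODE M21, as the 26 bases between the cut points of 2 loops of the form CNGCAGC. It is shown in capitals to make plain how little of the mRNA separates the forms.
Xbp1 mRNA (GENCODE M21, chromosome 11): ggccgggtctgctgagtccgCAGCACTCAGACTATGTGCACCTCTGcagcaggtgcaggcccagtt

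Between genes, levels were compared per kilobase of the longest coding transcript, since longer transcripts give more reads. In OTD the order was Calr (294.6 per kb), Hsp90b1 (282.4), Hspa5 (185.1), Herpud1 (162.0), Pdia4 (105.8), Xbp1 (48.6), Dnajb9 (39.0), Manf (32.4), Creld2 (15.7) and Sdf2l1 (13.6). In control Herpud1 stood first at 267.8 per kb, then Hsp90b1 (263.9), Calr (245.3), Hspa5 (167.8) and Pdia4 (88.9), and the order of the other 5 was as in OTD. Herpud1 thus ranked 4 in OTD and 1 in control, and it was the gene whose rank differed most. By their counting intervals, Herpud1 (261.6 to 274.2) and Hsp90b1 (258.8 to 269.2) could not be told apart in control, and neither could Creld2 and Sdf2l1 in either pool.

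**Figure D3:**
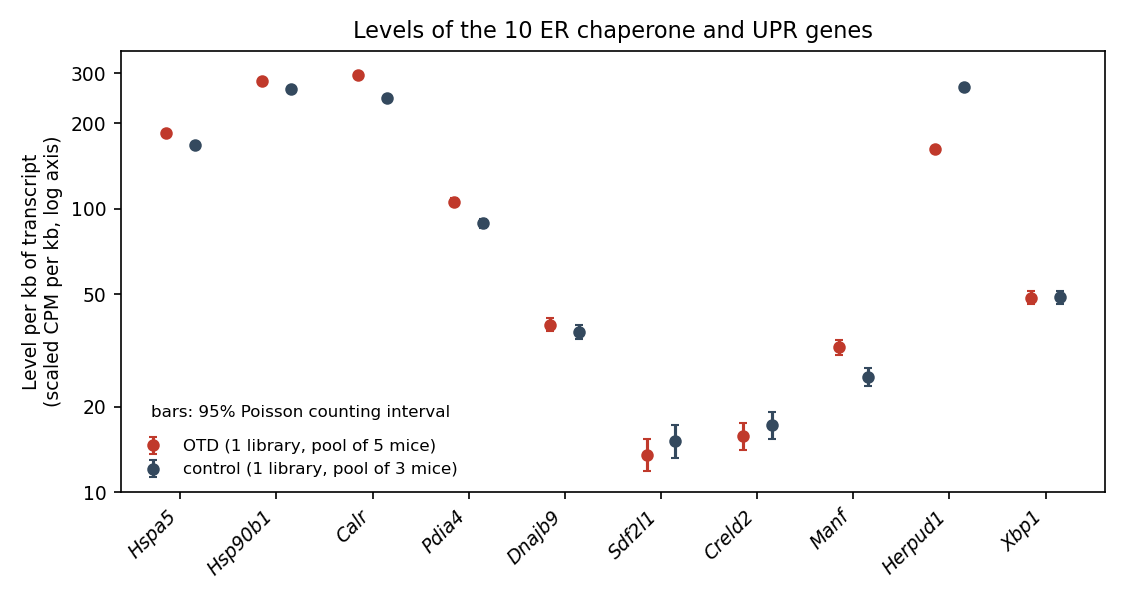
Level per kilobase of transcript (y axis, scaled CPM per kb, log scale) of the 10 genes in the OTD pool (red, left) and the control pool (dark, right); bars are 95% Poisson counting intervals, hidden by the points where narrow. The points of a gene lie close together except for Herpud1, at 162.0 in OTD and 267.8 in control.

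Genes around the 10 were described by lists of ER function. The 5 lists of ER chaperones, disulfide enzymes, glycan trimming, ERAD and UPR regulators held 69 further measured genes. Their median log2 ratio was 0.014, and 43 (62.3%) lay above 0 and 26 below, with 48.4% of all measured genes above 0. Counts above 0 in the lists that follow stand beside that same 48.4%. Of these 69, 0 were past 1.5-fold in either direction. Among all measured genes 1.51% were that much higher and 0.908% that much lower, so 0 of 69 lies near those shares. Herpud1 was thus the lowest of the 79 joined genes, at −0.72. The next, the ERAD ubiquitin-conjugating enzyme gene Ube2g2, was at −0.40.

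Chaperones that share a role with Hspa5 had small ratios. The list of ER HSP70 and HSP90 chaperones had a median log2 ratio of 0.072 over 14 measured genes, 10 of them above 0. Hyou1, an HSP70-like partner of BiP, stood at 217.8 in OTD and 181.2 in control, a ratio of 1.20 (1.14 to 1.27), close to that of Calr. Fkbp2, a prolyl isomerase of the ER, had a ratio of 1.13 (0.988 to 1.29). Disulfide enzymes had a median of 0.065 over 20 genes, with log2 ratios from −0.31 to 0.25. P4hb, the most abundant disulfide isomerase gene, had a level of 1112 in each pool and a ratio of 1.00 (0.978 to 1.02), below the interval of Pdia4. Txndc11 had a ratio of 1.19 (1.03 to 1.37) and Txndc12 of 0.802 (0.691 to 0.931). In the calnexin cycle, with a median of 0.014 over 9 genes, Calr had the highest ratio, followed by Uggt1, the folding sensor of glycoproteins, at 1.11 (1.04 to 1.19), while the mannosidase gene Man1a was at 0.930 (0.893 to 0.968).

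Without Herpud1, the 24 measured ERAD genes had a median log2 ratio of −0.0071, with 12 above 0 and 12 below, and ran from −0.40 (Ube2g2) to 0.26 (Ubxn4). With Herpud1 the median was −0.015, and it turned to 0.040 when reads were scaled to the same total. Ube2g2 stood at 30.3 in OTD and 40.3 in control, a ratio of 0.753 (0.663 to 0.855). Ubxn4, an ER membrane partner of the ATPase VCP, had a ratio of 1.20 (1.11 to 1.30). The partners of Herpud1 in the HRD1 complex, named after their values were seen, were Syvn1, the ligase itself, at 1.08 (0.993 to 1.17), Sel1l at 1.03 (0.977 to 1.08) and Derl2 at 1.10 (1.02 to 1.19). Its close relative Herpud2, also named after its values were seen, stood at 48.6 in OTD and 43.4 in control.

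Genes of the sensors and regulators were spread on both sides of 0, with a median log2 ratio of 0.061 over 11 measured genes, 6 above 0 and 5 below. The median was −0.035 at a mean level of at least 50. Ern1, which encodes IRE1, had a ratio of 1.10 (1.01 to 1.19), Eif2ak3, which encodes PERK, of 1.10 (0.951 to 1.27) and Atf6 of 0.954 (0.879 to 1.04), all 3 named after their values were seen. Creb3l2, a membrane-bound transcription factor related to ATF6, stood at 39.0 in OTD and 28.6 in control, a ratio of 1.36 (1.20 to 1.55). Its liver relative Creb3l3 stood at 237.7 in OTD and 291.9 in control, a ratio of 0.814 (0.778 to 0.852). Mbtps1, the protease that first cuts ATF6, had a ratio of 0.837 (0.772 to 0.907).

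In the branch of PERK and ATF4, 12 of 24 genes in the table were measured, with a median log2 ratio of 0.063, 8 above 0 and 4 below. The median over all 24 was 0.0074. Ddit4, an inhibitor of mTORC1, stood apart at 19.04 in OTD and 4.43 in control, a log2 ratio of 1.88 that became 1.01 with a pseudocount of 10. The genes Vldlr (log2 ratio −0.31), Cebpb (−0.30) and the most abundant gene, Aars (0.086), had smaller differences. Ddit3, which encodes the stress factor CHOP, was named after its values were seen and had 59 reads in OTD and 61 in control, levels of 3.94 and 4.58 and a ratio of 0.860 (0.5909 to 1.251). Trib3 had 146 and 133 reads and a ratio of 0.976 (0.766 to 1.24), and Chac1 had 40 and 36 and a ratio of 0.988 (0.614 to 1.60), both also named after their values were seen. Fgf21, a hormone gene of the liver and likewise named after its values were seen, had 44 reads in OTD and 95 in control, levels of 2.94 and 7.14 and a ratio of 0.412 (0.281 to 0.595). It was thus lower in OTD beyond counting error, while Ddit4 was higher. The intervals of the other genes of the list below a mean level of 10 held 1.

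The lists for entry into and exit from the ER had medians between 0.073 and 0.11. Translocation genes had a median log2 ratio of 0.073 over 23 genes, 15 above 0, with Spcs3, a signal peptidase subunit, at a ratio of 1.20 (1.10 to 1.31), Srp14 at 1.19 (1.01 to 1.41), Tram2 at 0.746 (0.592 to 0.939) and Ssr3, the most abundant, at 1.08 (1.03 to 1.13). Oligosaccharyltransferase genes had a median of 0.11 over 11 genes, 9 above 0. Its subunit gene Magt1 had a ratio of 1.24 (1.15 to 1.33), the catalytic Stt3a of 1.20 (1.12 to 1.29), Ostc of 1.20 (1.06 to 1.37) and Rpn2 of 0.959 (0.907 to 1.01). Genes of transport to the Golgi had a median of 0.10 over 21 genes, 14 above 0. The 3 highest encode coat proteins of COPII vesicles, Sec13 at 1.36 (1.18 to 1.57), Sec24d at 1.30 (1.20 to 1.40) and Sec24c at 1.27 (1.18 to 1.36), and the cargo receptor gene Lman2 had a ratio of 1.08 (1.03 to 1.13).

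**Figure D4:**
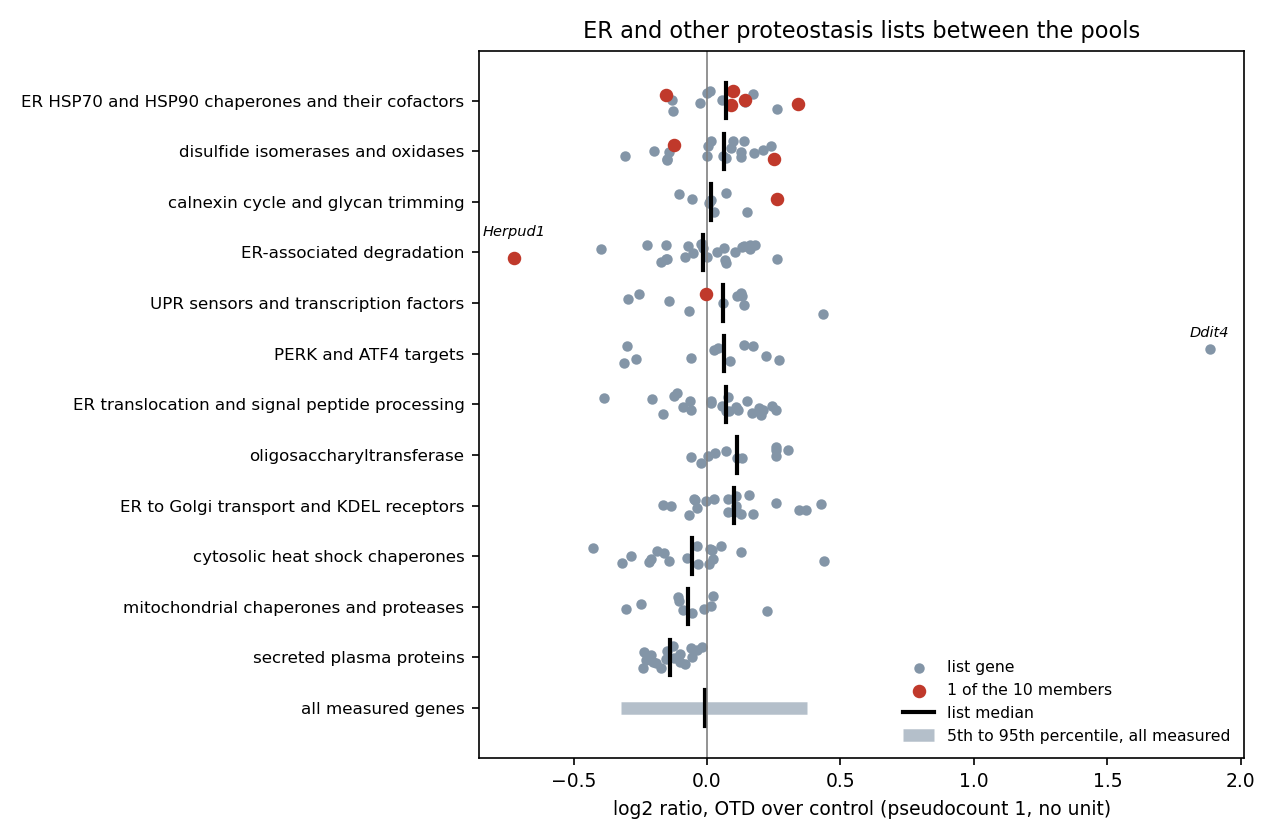
Log2 ratio of OTD over control (x axis, pseudocount 1) for each measured gene of 12 lists, with the 10 genes in red, list medians as black bars and, at the bottom, the range of all 7602 measured genes from the 5th to the 95th percentile (−0.32 to 0.37). Of the list genes, Herpud1 at −0.72 and Ddit4 at 1.88 lie farthest outside that range, and the list medians lie between −0.14 and 0.11.

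Genes that carry an ERSE or ERSE-II but are outside the 10 were not uniformly higher. In all, 17 measured genes held either element, among them 5 of the 10. The other 12 had a median log2 ratio of 0.071, with 7 above 0 and 5 below. Of these, the 8 with an ERSE had a median of 0.089, 6 above 0 and 2 below, and the 4 with an ERSE-II a median of −0.081, 1 above 0 and 3 below. These medians stand beside −0.0061 over the 5860 measured genes with a promoter window. Herpud1 was the lowest of the 17, followed by Rcl1 at −0.18, and Acacb was the highest at 0.36. Among the ER genes of the 17, Canx had a log2 ratio of 0.071, Pdia6 of 0.072, Syvn1 of 0.11 and Dnajc3 of −0.025. The 17 were found by sequence, and those named here were picked after their values were seen.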

How the data were processed

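The authors deposited 1 normalized signal per gene symbol and library, which behaves as a scaled CPM. The submitters' processing notes list the mm10 build and the tools edgeR, RSEM, Bowtie2 and Trimmomatic (version 0.38) without saying what each did. Annotation, gene filter and strand setting: not given in the sources used here. Every deposited signal was a whole multiple of the value of 1 read (100% of values, tolerance 1e-06), so whole reads were recovered.

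A pseudocount of 1 was added for log2 ratios of OTD over control, so low genes appear to differ less than they do. Genes with a mean level of at least 10 were called measured. Ratios of levels used no pseudocount and carry 95% Clopper-Pearson intervals, and levels per kb carry 95% Poisson intervals. Both cover counting error only, and PCR duplicates are not independent molecules. A count test on the recovered reads could not be run, because 1 library per group leaves no residual degrees of freedom. The 10 genes, the 12 pathway lists and the 7 marker lists were chosen with earlier results of these data known. Named from each pathway list were up to 3 measured genes with the largest absolute log2 ratio and the most abundant one. Other genes of these lists are said to be named outside this rule. From the marker lists, Alb, Sdc1, Jchain, Cd79b and Hnf4a were named without a rule. Coordinates, transcript lengths and shared 50-base stretches came from GENCODE M21 (GRCm38), which holds 96.0% of the symbols, and promoters from RefSeq (GRCm38.p6). The software was scipy 1.17.1, pandas 2.3.3, numpy 2.4.6 and matplotlib 3.10.9 on Python 3.11.15, and the ratios and intervals were tested on simulated reads. Alternatives were other pseudocounts, scalings, filters and folds.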

Additional observations from a re-analysis of the deposited data

How the results depend on the processing

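Herpud1 kept its direction under each pseudocount, scaling and filter tried, with a log2 ratio from −0.74 to −0.65, as did the other genes of the 10 except Xbp1, which ranged from −0.016 to 0.070. The median of the 10 ranged from 0.036 (ratio of the summed levels) to 0.17 (same total without Rn45s, a ribosomal RNA precursor whose share of reads was 2.66% in OTD and 1.47% in control). That scaling moved the median of all measured genes to 0.065. Counts at least 2-fold higher and lower were 0 and 0 under each pseudocount, scaling and filter. With the size itself set to 1.5-fold the count lower became 1 (Herpud1), and with a still smaller size the counts were 1 higher (Manf) and 1 lower (Herpud1). Of 78 values of the 10 genes under the alternatives, 9 moved beyond the counting interval, as did 21 of 299 values of other named genes. List medians near 0 changed sign under some settings. The ERAD median was 0.040 with the same total and 0.057 without Rn45s, and the median of the sensors was −0.035 at a mean level of at least 50. The cytosolic heat shock median was 0.017 and the mitochondrial one 0.00023 with the same total without Rn45s. The cause of these sign changes was not tested. No paired analysis was possible because each group has 1 library, and for the same reason no replicate could be left out. Depth limits Sdf2l1 and Creld2, with 225 and 322 reads in OTD and 224 and 313 in control.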

Other observations

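Chaperones outside the ER had list medians below 0 with the deposited scaling. Cytosolic heat shock chaperones had a median log2 ratio of −0.055 over 18 measured genes, 7 above 0 and 11 below. Hsph1, an exchange factor of HSP70, stood at 93.4 in OTD and 125.9 in control, a ratio of 0.742 (95% counting interval 0.690 to 0.797). The J-domain gene Dnaja1 had a ratio of 0.802 (0.763 to 0.843). Hspa8, the abundant constitutive HSP70, stood at 1177 in OTD and 1434 in control, a ratio of 0.821 (0.804 to 0.838), whereas Hspa4l had a ratio of 1.37 (1.18 to 1.59). Mitochondrial chaperones and proteases had a median of −0.072 over 10 genes, 3 above 0 and 7 below. Grpel2 and Grpel1, exchange factors of mitochondrial HSP70, had ratios of 0.806 (0.724 to 0.897) and 0.840 (0.779 to 0.905), Clpx, the most abundant, of 0.930 (0.900 to 0.960) and Hspe1 of 1.169 (1.089 to 1.254). The medians of both lists turned positive when reads were scaled to the same total without Rn45s, at 0.017 and 0.00023.

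The listed plasma protein genes, which encode part of the cargo of the hepatocyte ER, were slightly lower in OTD. Other secreted proteins, such as the major urinary proteins, were not in the list. The median log2 ratio was −0.14 for 18 secreted plasma protein genes, each of which lay below 0, as did 3921 of all 7602 measured genes. Of 10 hepatocyte markers 8 lay below 0 and 2 above, with a median of −0.10 and a ratio of summed levels of 0.881. Their log2 ratios ran from −0.50 to 0.14. The lowest was Hnf4a, named after its values were seen, with a ratio of 0.707 (0.688 to 0.725). Alb, Apoa1 and Ttr are in both the marker and the plasma protein list, and Alb made up most of the summed marker level. The 2 lists are thus not separate observations. The 8 measured Kupffer cell markers all lay below 0, with a median of −0.12. The part of these markers in the result was not tested. Across the pseudocounts and scalings, between 14 and 18 of the plasma protein genes lay below 0. Trf had a ratio of 0.847 (0.842 to 0.851), Apoh of 0.850 (0.836 to 0.864) and Alb of 0.853 (0.851 to 0.856). The levels of the 18 summed to 163596 in OTD and 186255 in control, a ratio of 0.878, beside 1.03 for the sum of the 10 ER genes. No test compares these lists.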
